A study of Homo sapiens with 17 samples.

Results

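The genes described here are 10 components and targets of bone morphogenetic protein (BMP) signalling: the ligands BMP4 and BMP6, the receptor ACVRL1, the transcription factor SMAD9, the inhibitory SMADs SMAD6 and SMAD7, and the targets ID1, ID2, ID3 and TMEM100. They were chosen by symbol, and all 10 were matched to an Ensembl identifier among the 58302 identifiers of the count tables and the 28285 of the tables in TPM (transcripts-per-million). BMP ligands bind pairs of type I and type II receptor kinases, which phosphorylate SMAD1, SMAD5 and SMAD9, and these enter the nucleus with SMAD4 and switch on target genes. ID proteins, encoded by some of the best known targets, bind basic helix-loop-helix factors and keep them off DNA, whereas SMAD6 and SMAD7 are induced by the signal and damp it. In endothelium, ACVRL1 (ALK1) and its co-receptor ENG (endoglin) carry BMP9 and BMP10 signals, and BMP4 is used to direct pluripotent cells to mesoderm, from which endothelium and blood arise.

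RNA was sequenced in 17 libraries from cells derived from H1, a human embryonic stem cell line. All were GATA2+ endothelial cells, sorted by an eGFP reporter of the transcription factor GATA2, or their progeny after re-plating. Sorted cells were sequenced with vitamin C (Vc+, n = 2) and without vitamin C (Vc-, n = 2). A course held 1 library with and 1 without vitamin C at each of 0, 24, 36, 48 and 60 h, of which the re-plated ones are labelled as mixtures of endothelial and blood-forming cells. A further 3 libraries, all with vitamin C, were of suspended cells (1 at 60 h and 1 at 96 h) and of adherent cells (60 h). All cells carried the reporter and came from 1 line. The dose and duration of vitamin C are not given in the sources used here, and nothing says which libraries came from separate cultures, so p-values measure the spread between these libraries only.

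The 13 count libraries held 6214675 to 11058345 counts, so that 1 count was worth 0.0904 to 0.161 CPM (counts-per-million). Of 10 endothelial markers, all were detected in every course library. All 10 were also detected in the suspended cells at 60 h, so detection alone is no check of the endothelial label. Their summed level after 0 h was 8187 to 9588 CPM with vitamin C and 7974 to 8892 CPM without. At 0 h it was 7835 CPM with and 6958 CPM without. In the sorted cells 9 of these markers were listed and all were above 0, with sums of 2489 to 4219 TPM, whereas PECAM1 was not listed. All 10 mesenchymal markers were above 0 there too, with sums of 1035 to 2039 TPM. Titles and descriptions of the sorted libraries disagree on vitamin C for 2 of 4, since the descriptions give both libraries of a replicate number the same condition. The titles were used.

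Per exon length, ID1 and ID3 were the most abundant of the 10 transcripts. Counts of the course rescaled to TPM had a median over 10 libraries of 857 for ID1, with a range of 681 to 1273, and of 548 for ID3, with a range of 455 to 879. Both ranges lay above those of the other 8 genes. SMAD6 followed with a median of 214 (range 96.4 to 313) and ACVRL1 with 184 (70.8 to 211). BMP6 stood at 100.2 (36.8 to 166), ID2 at 86.3 (54.8 to 232) and TMEM100 at 67.0 (6.28 to 262). The least abundant were BMP4 at 41.9 (21.1 to 52.3), SMAD7 at 10.8 (7.96 to 35.6) and SMAD9 at 9.13 (2.94 to 16.2). Apart from ID3 and SMAD6, neighbours in this order had overlapping ranges. In the sorted cells, whose TPM values were made by the authors, ID1 and ID3 again had the highest means over 4 libraries, at 941 and 911 TPM, and SMAD9 the lowest at 5.76 TPM. ID2 stood at 386 TPM there.

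The upstream sequences of 4 of these genes are shown because their transcripts behaved unlike each other below: ID1 and ID3, which kept a similar course, ID2, which left it, and SMAD6, the most abundant of the 3 SMADs. Each line is the 250 bases before the transcription start in RefSeq (GRCh38.p14), 5′ to 3′ on the gene's own strand: chr20:31605039-31605288 (plus strand) for ID1, chr1:23559502-23559751 (minus strand) for ID3, chr2:8681806-8682055 (plus strand) for ID2 and chr15:66701986-66702235 (plus strand) for SMAD6. Capitals mark the motif GGAGCC, its variant GGCGCC, and the palindrome GTCTAGAC, on either strand, all known from SMAD binding elements.
ID1: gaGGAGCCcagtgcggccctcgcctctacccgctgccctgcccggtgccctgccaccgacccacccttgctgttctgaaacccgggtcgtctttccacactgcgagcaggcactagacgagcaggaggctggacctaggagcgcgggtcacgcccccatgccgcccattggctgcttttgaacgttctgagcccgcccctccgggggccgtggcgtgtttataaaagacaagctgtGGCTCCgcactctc
ID3: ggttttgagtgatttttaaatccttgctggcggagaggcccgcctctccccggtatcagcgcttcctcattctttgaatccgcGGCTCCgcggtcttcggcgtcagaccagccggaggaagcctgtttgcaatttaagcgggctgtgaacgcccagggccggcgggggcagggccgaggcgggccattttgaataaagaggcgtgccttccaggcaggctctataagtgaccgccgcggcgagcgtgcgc
ID2: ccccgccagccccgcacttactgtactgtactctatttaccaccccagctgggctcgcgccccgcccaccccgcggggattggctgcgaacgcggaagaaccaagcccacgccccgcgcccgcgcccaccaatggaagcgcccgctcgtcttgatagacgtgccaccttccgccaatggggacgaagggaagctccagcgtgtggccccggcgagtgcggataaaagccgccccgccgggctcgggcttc
SMAD6: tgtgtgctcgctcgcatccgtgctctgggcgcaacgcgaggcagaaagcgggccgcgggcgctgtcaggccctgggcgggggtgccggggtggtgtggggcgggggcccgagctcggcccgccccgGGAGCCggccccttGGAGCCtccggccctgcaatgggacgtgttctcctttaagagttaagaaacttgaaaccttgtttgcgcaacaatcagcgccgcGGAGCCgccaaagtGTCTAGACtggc

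A search of both strands found GGAGCC at 2 places in the ID1 window, starting 248 and 14 bases before the start. ID3 had it at 1 place, 167 bases before the start, and SMAD6 at 3 places, 124, 110 and 26 bases before it. SMAD6 alone of these held the palindrome GTCTAGAC, starting 12 bases before the start. ID2 held none of the 3 motifs in this window. GGAGCC was present in 30.6% of all 35116 windows of this length, GGCGCC in 16.4% and GTCTAGAC in 0.182%, or 64 windows. A match of letters is not a measured binding site. Of the other 6 genes, BMP4, BMP6, SMAD7 and SMAD9 also had windows in the table. GGAGCC was found at 3 places in the SMAD9 window, in 1 of 3 BMP4 windows and in 1 of 3 SMAD7 windows. GGCGCC was found in another BMP4 window, and the BMP6 window held none of the motifs.

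In the sorted cells none of the 10 genes was called different with and without vitamin C, and nor was any of the 14421 genes tested (0.0% called, limma on log2(TPM + 1) with Benjamini-Hochberg adjustment), although 313 genes had an unadjusted p under 0.05. The receptor ACVRL1 and the ligand BMP6 were the members whose groups did not overlap, 2 of 10, against 28.4% of all genes tested. ACVRL1 had 174 and 168 TPM with vitamin C in replicates 1 and 2, against 139.8 and 114 TPM without. Both libraries with vitamin C were higher, by 0.43 ± 0.24 on the log2 scale (SE). BMP6 had 12.4 and 13.1 TPM with vitamin C, against 10.1 and 12.1 TPM without, a log2 difference of 0.19 ± 0.35. For the other 8 genes the groups overlapped.

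The libraries of replicate 2 stood apart from those of replicate 1 for several targets. TMEM100, an endothelial transmembrane protein induced through ACVRL1, had 54.6 and 1.45 TPM with vitamin C in replicates 1 and 2 and 29.9 and 1.20 TPM without. It was high in both replicate 1 libraries and near 1 TPM in both replicate 2 libraries, whatever the vitamin C label. ID2 had 183 and 529.7 TPM with vitamin C and 199 and 633 TPM without, and was higher in both replicate 2 libraries. Replicate 2 minus replicate 1, fitted with vitamin C as the other term, was -4.16 ± 0.33 for TMEM100 (limma adjusted p = 0.0248) and 1.60 ± 0.19 for ID2 (adjusted p = 0.0302) on the log2 scale. These were 2 of 10 members called for the replicate number, against 1.66% of the 14421 genes. Since the descriptions group the libraries by this number, the same split is the vitamin C contrast if the descriptions are right and the titles wrong, and the 2 readings cannot be told apart here. Endothelial markers summed to 4219 and 2489 TPM with vitamin C in replicates 1 and 2 and to 3353 and 2867 TPM without. Blood markers summed to 114 and 254 TPM with and 161 and 211 TPM without, and mesenchymal markers to 1320 and 1035 TPM with and 2039 and 1455 TPM without. Their part in the split was not tested.

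Several other members also split by replicate number without passing the test. SMAD6 had 206 and 577 TPM with vitamin C and 292 and 412 TPM without, and its replicate difference was 0.99 ± 0.27 (limma adjusted p = 0.0999). ID1 had 719 and 1283 TPM with vitamin C and 726 and 1036 TPM without. ID3 had 643 and 1389.7 TPM with vitamin C and 718 and 894 TPM without. All 3 of these genes were higher in each replicate 2 library than in either replicate 1 library, and so were ID2 and SMAD7. The same held for 17.9% of all genes tested. BMP4 ran the other way, with 35.7 and 23.5 TPM with vitamin C and 40.5 and 19.5 TPM without. SMAD7 had 25.8 and 38.2 TPM with vitamin C and 33.6 and 40.6 TPM without, again higher in each replicate 2 library than in either replicate 1 library. SMAD9, the least abundant, had 4.44 and 5.30 TPM with vitamin C and 9.26 and 4.04 TPM without, and only replicate 1 without vitamin C stood out.

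**Figure D1:**
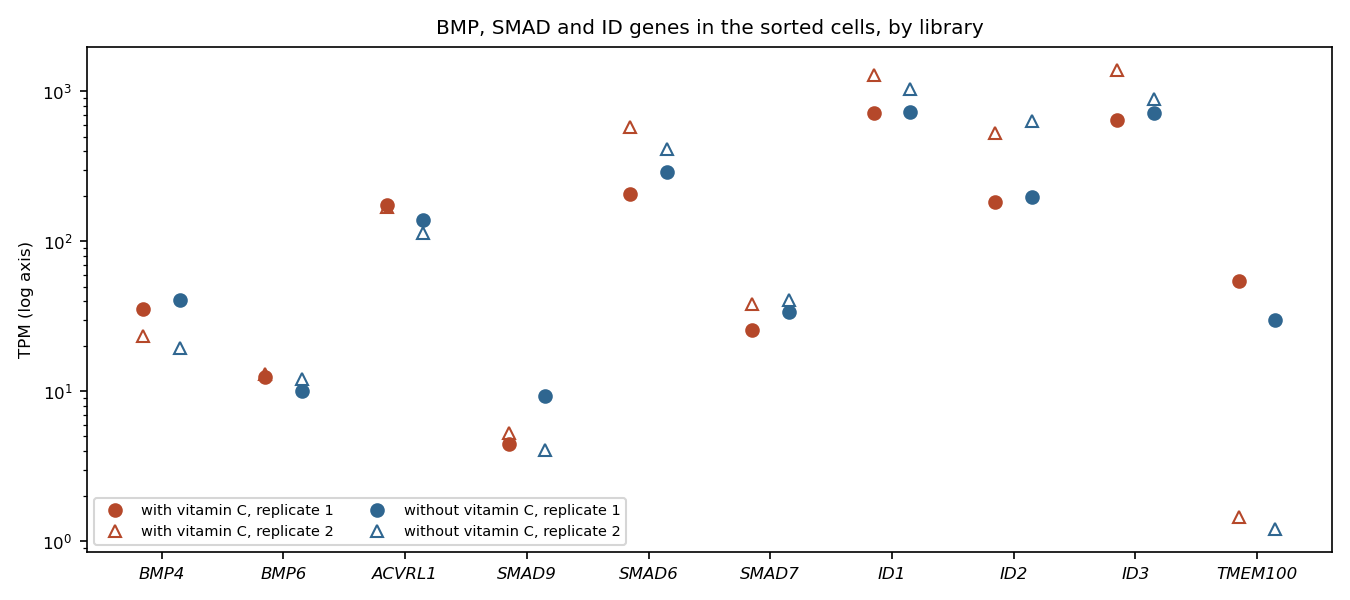
TPM on a log axis of the 10 genes in the 4 sorted libraries, with vitamin C left of without, filled circles for replicate 1 and open triangles for replicate 2. TMEM100 lies at 54.6 and 29.9 TPM in the replicate 1 libraries with and without vitamin C and at 1.45 and 1.20 TPM in the replicate 2 libraries, while ID2 is higher in replicate 2.

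Most of these genes changed after re-plating. Comparing the mean of 24, 36, 48 and 60 h with 0 h in the 10 course libraries, 7 of the 10 genes were called (edgeR quasi-likelihood test, adjusted p under 0.05): BMP6, ACVRL1 and TMEM100 were higher after re-plating, and SMAD9, SMAD6, SMAD7 and ID2 were lower. Of all 16276 genes tested, 36.3% were called, 16.8% higher and 19.5% lower, so the members' share is to be read against a large background. BMP4, ID1 and ID3 were not called. In these bulk libraries fewer cells of a type and less RNA per cell cannot be told apart, and after re-plating the endothelial markers were called higher for 6 of 10 and lower for 2, and the mesenchymal markers lower for 5 of 9 and higher for 1. Their part in these differences was not tested.

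The ligands took different courses. BMP6, a ligand made by endothelium and known from the liver as a regulator of iron balance, had 36.1, 127, 92.6, 99.9 and 83.7 CPM with vitamin C at 0, 24, 36, 48 and 60 h, against 31.2, 68.5, 75.5, 86.1 and 81.5 CPM without. Every library after 0 h was above both 0 h libraries. Its log2 difference, later minus 0 h, was 1.42 ± 0.15 (edgeR adjusted p = 1.83e-05), and its slope from 24 to 60 h was not called (-0.15 ± 0.16 per 36 h, adjusted p = 0.53). BMP4 had 26.2, 41.7, 36.7, 37.9 and 19.5 CPM with vitamin C at the same times, against 49.1, 41.8, 45.9, 35.7 and 30.1 CPM without. The later libraries spread over the level of the 0 h libraries (log2 difference -0.03 ± 0.17, adjusted p = 0.902), but from 24 to 60 h BMP4 fell by 0.73 ± 0.19 per 36 h on the log2 scale (adjusted p = 0.0103). Without the 60 h library with vitamin C, this slope was -0.45 and was not called (adjusted p = 0.084).

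ACVRL1 had a course like that of BMP6. The receptor had 144, 295, 296, 269 and 259 CPM with vitamin C at 0, 24, 36, 48 and 60 h, against 109, 262, 294, 229 and 279 CPM without. All later libraries were above both 0 h libraries, by 1.14 ± 0.10 on the log2 scale (edgeR adjusted p = 4.28e-06), and the level then stayed within 229 to 296 CPM.

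SMAD9, SMAD6 and SMAD7 were lower after re-plating, and SMAD6 and SMAD9 rose again from 24 h on. SMAD9 had 20.7, 4.67, 6.18, 14.2 and 8.78 CPM with vitamin C at 0, 24, 36, 48 and 60 h, against 28.3, 9.93, 16.2, 21.6 and 19.4 CPM without. The lowest value of each condition was at 24 h, and 1 later library (48 h without vitamin C) reached above a 0 h library. The later minus 0 h difference was -1.08 ± 0.18 (log2, edgeR adjusted p = 0.000517). SMAD6, which blocks BMP receptors and SMAD1, had 626, 290.0, 405, 557 and 522 CPM with vitamin C, against 768, 233, 477, 621 and 787 CPM without. It was lowest at 24 h in both conditions, with a later minus 0 h difference of -0.58 ± 0.12 (adjusted p = 0.00225). By 60 h alone that difference was -0.09 and was not called (adjusted p = 0.737, a comparison added after seeing the data). From 24 to 60 h SMAD6 rose by 1.27 ± 0.19 per 36 h (adjusted p = 0.000186) and SMAD9 by 1.05 ± 0.32 (adjusted p = 0.0237). The SMAD9 slope was not called without the 24 h library with vitamin C (0.88, adjusted p = 0.0907) or the 24 h library without it (0.86, adjusted p = 0.141).

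SMAD7, which acts on both BMP and TGF-beta receptors, had 31.2, 11.1, 16.1, 15.7 and 15.4 CPM with vitamin C at 0, 24, 36, 48 and 60 h, against 54.5, 12.8, 13.9, 15.9 and 21.1 CPM without. Both 0 h libraries were above every later one. The later minus 0 h difference was -1.46 ± 0.16 (log2, edgeR adjusted p = 2.49e-05). Its slope of 0.54 ± 0.21 per 36 h was not called (adjusted p = 0.0606), but was without the 36 h library with vitamin C (0.61, adjusted p = 0.0384) or the 60 h library with it (0.71, adjusted p = 0.048).

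The ID genes did not move together. ID1 had 301, 233, 300.3, 411 and 319 CPM with vitamin C at 0, 24, 36, 48 and 60 h, against 296, 292, 377, 397 and 461 CPM without. ID3 had 289, 233, 234, 283 and 295 CPM with vitamin C, against 314, 257, 324, 359 and 464 CPM without. For both genes the later libraries spread around the 0 h level, with log2 differences of 0.21 ± 0.11 for ID1 (edgeR adjusted p = 0.139) and 0.01 ± 0.10 for ID3 (adjusted p = 0.96). ID1 was called higher when the 0 h library with vitamin C was left out (0.38, adjusted p = 0.0336) or the 60 h library with it (0.28, adjusted p = 0.0369), and with no filter on low counts (0.24, adjusted p = 0.0255). ID2 had 90.1, 33.5, 52.5, 48.9 and 59.0 CPM with vitamin C, against 156, 47.4, 53.9, 56.0 and 66.3 CPM without. Both 0 h libraries of ID2 were above all later ones, and the difference was -1.20 ± 0.12 (adjusted p = 9.44e-06). An antisense gene, ID2-AS1, overlaps an ID2 exon and had 0 to 11 counts per library, and whether the counting used strand is not stated. ID2B and BMP6P1 are processed pseudogenes of these genes, so reads could be split with them.

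From 24 to 60 h all 4 targets rose. ID1 rose by 0.57 ± 0.14 per 36 h on the log2 scale (edgeR adjusted p = 0.00743), ID2 by 0.54 ± 0.14 (adjusted p = 0.0105) and ID3 by 0.59 ± 0.11 (adjusted p = 0.00104). ID1 was not called without the 24 h library with vitamin C (0.46, adjusted p = 0.052) or the one without it (0.49, adjusted p = 0.0653). ID2 was not called without the 24 h library with vitamin C (0.37, adjusted p = 0.0783) or the 60 h library with it (0.53, adjusted p = 0.0512). TMEM100 had 7.35, 11.8, 49.1, 111 and 129 CPM with vitamin C at 0, 24, 36, 48 and 60 h, against 5.56, 13.3, 63.2, 152 and 223 CPM without. It was higher at each time than at the time before in both conditions. Its 60 h level was 17.5 times the 0 h level with vitamin C and 40.2 times without, the later minus 0 h difference was 3.28 ± 0.20 (adjusted p = 1.61e-07) and the slope 3.50 ± 0.36 per 36 h (adjusted p = 1.11e-05). In all, 7 of the 10 genes had a called slope from 24 to 60 h, 6 rising and BMP4 falling, against 29.7% of 15041 genes tested.

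**Figure D2:**
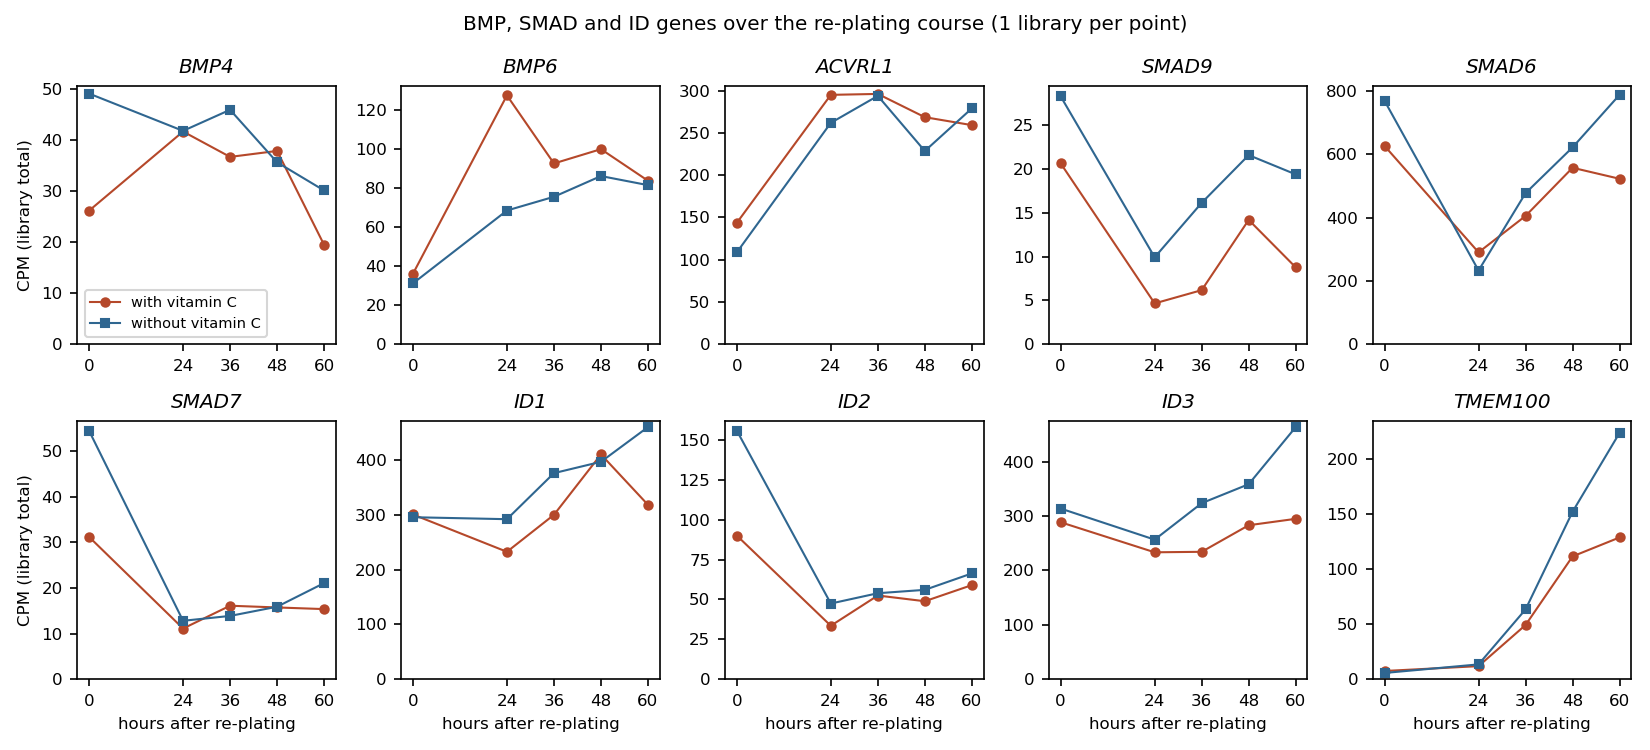
CPM of each gene (linear axes from 0, 1 panel per gene) against hours after re-plating, circles with and squares without vitamin C, 1 library per point. BMP6 and ACVRL1 are high from 24 h on, SMAD9, SMAD6, SMAD7 and ID2 dip at 24 h, and TMEM100 climbs by 60 h to 129 CPM (with vitamin C) and 223 CPM (without).

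Vitamin C went with lower levels of 2 of the 10 genes over the course, SMAD9 and ID3, and with a higher level of none (edgeR with the time point as a factor). Of all 16276 genes 5.87% were called, 2.5% higher and 3.37% lower. The median log2 difference of the 10 genes, with minus without vitamin C, was -0.32, against 0.01 over all genes. SMAD9 was lower with vitamin C at all 5 times, by 0.46 to 1.32 on the log2 scale, and its fitted difference was -0.90 ± 0.16 (adjusted p = 0.00511). Leaving out any 1 library kept that call, with adjusted p between 0.000701 and 0.0312. Since time is a factor with 1 library per condition, this also takes the partner at that time out of the vitamin C difference. Leaving out either library of a time is thus nearly the same check, made at 5 times. ID3 was also lower at all 5 times, least at 0 and 24 h and most at 60 h, and its fitted difference was -0.35 ± 0.08 (adjusted p = 0.0237). Its call depended on single times. Without the 36, 48 or 60 h library with vitamin C the adjusted p was 0.119, 0.0863 or 0.0719, and without the 36, 48 or 60 h library lacking it, 0.113, 0.0868 or 0.0749.

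The other 8 genes did not pass this test. ID2 was lower with vitamin C at all 5 times (-0.35 ± 0.11, edgeR adjusted p = 0.0783), and BMP6 was higher at all 5 (0.33 ± 0.11, adjusted p = 0.114). TMEM100 was lower from 24 h on (-0.40 ± 0.12, adjusted p = 0.0858), and was called when the 0 h library with vitamin C (-0.50, adjusted p = 0.00422) or the one without it (-0.50, adjusted p = 0.00431) was left out. ID1 (-0.23 ± 0.08, adjusted p = 0.153) was also called without either of those libraries (-0.29 each, adjusted p of 0.0302 and 0.0346). SMAD6 (-0.20 ± 0.10, adjusted p = 0.304) was called without the 24 h library with vitamin C (-0.33, adjusted p = 0.0443) or the one lacking it (-0.33, adjusted p = 0.041). For each of these genes, leaving out either library of the pair is nearly the same check. BMP4 differed by -0.36 ± 0.14 (adjusted p = 0.166), SMAD7 by -0.29 ± 0.15 (adjusted p = 0.341) and ACVRL1 by 0.13 ± 0.08 (adjusted p = 0.389). Without the filter on low counts, BMP4, SMAD6, ID1, ID2 and TMEM100 were also called lower and BMP6 higher, with adjusted p of 0.00244 to 0.0288.

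Markers of other cell types moved with vitamin C in the same libraries. Of 11 blood markers tested, 11 were called higher with vitamin C, and their summed level lay between 165 and 548 CPM with it and between 82.3 and 151 CPM without. Of 9 mesenchymal markers 6 were called lower. Their sums at 0 h were 2238 CPM with vitamin C and 2073 CPM without it. After 0 h they lay between 518 and 650 CPM with vitamin C and between 922 and 1696 CPM without it. Of 5 epithelial markers 3 were called lower, with sums between 486 and 524 CPM with vitamin C and between 1057 and 1171 CPM without it. Of 10 endothelial markers 3 were called higher, with sums between 7835 and 9588 CPM with vitamin C and between 6958 and 8892 CPM without it. Their part in the differences of SMAD9 and ID3 was not tested.

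Whether the vitamin C difference itself changed with hours was tested as an interaction. None of the 10 genes was called, against 0.737% of 16276 genes (edgeR), and the nearest was TMEM100 at -1.12 ± 0.28 per 60 h (adjusted p = 0.087). Without the filter on low counts TMEM100 was called (-1.13, adjusted p = 0.034). ID3 stood at -0.51 ± 0.18 (adjusted p = 0.276) and ID2 at 0.68 ± 0.24 (adjusted p = 0.284). SMAD6 was -0.33 ± 0.25 (adjusted p = 0.737), but was called without the 0 h library with vitamin C (-1.36, adjusted p = 0.0354) or the one without it (-1.37, adjusted p = 0.035). Both fits take the 0 h pair out of the vitamin C difference and are nearly the same check.

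**Figure D3:**
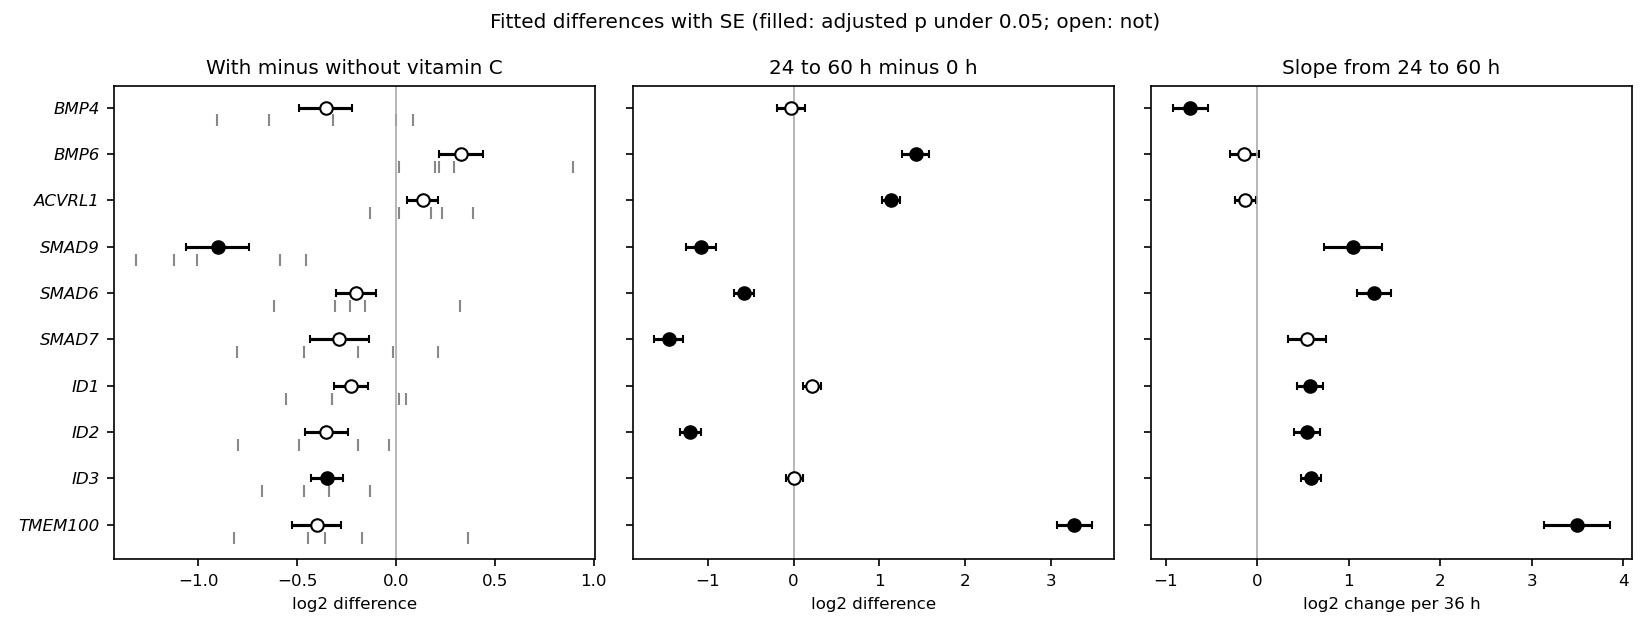
Fitted log2 values with SE for the 10 genes: with minus without vitamin C over 5 times (grey ticks, the difference at each time), 24 to 60 h minus 0 h, and the slope from 24 to 60 h. Filled points were called at an adjusted p under 0.05 and open ones not. SMAD9 at -0.90 and ID3 at -0.35 are the filled points of the first panel, and TMEM100 at 3.28 and 3.50 lies farthest right in the others.

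Around these genes, 56 further genes of the pathway were counted by list. For vitamin C over the course, 4 were called higher and 10 lower of 45 tested (edgeR), against 2.5% higher and 3.37% lower of all 16276 genes. Among ligands, BMP2 was lower with vitamin C (-1.15 ± 0.24, adjusted p = 0.0146), as were the cardiac and endothelial ligand BMP10 (-0.64 ± 0.15, adjusted p = 0.0313) and GDF6 (-1.08 ± 0.27, adjusted p = 0.0333). Among receptors, ENG was higher (0.62 ± 0.09, adjusted p = 0.00187), while the type I receptor BMPR1A (-0.43 ± 0.09, adjusted p = 0.0107) and TGFBR2 (-0.33 ± 0.08, adjusted p = 0.0315) were lower. SMAD3, a mediator of TGF-beta, was lower (-0.50 ± 0.10, adjusted p = 0.00967), and the BMP-binding protein BMPER was higher (0.83 ± 0.12, adjusted p = 0.00123). In the list of antagonists SMURF2, a ubiquitin ligase that works with SMAD7 (-0.52 ± 0.07, adjusted p = 0.00147), and FSTL1, a follistatin-like secreted protein (-0.35 ± 0.08, adjusted p = 0.0166), were lower. The BMP target MSX2 was lower (-1.58 ± 0.26, adjusted p = 0.00347). Of 5 helix-loop-helix factors listed beside the ID genes, TAL1 (0.51 ± 0.09, adjusted p = 0.00393) and TCF4 (0.33 ± 0.07, adjusted p = 0.0158) were higher. The other 3 were not called.

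After re-plating, 14 of these 45 genes were called higher and 15 lower than at 0 h, against 16.8% higher and 19.5% lower of all 16276 genes tested. BAMBI, a decoy receptor induced by BMP, was lower (-1.90 ± 0.11, edgeR adjusted p = 1.44e-07), as was BMPER (-1.57 ± 0.13, adjusted p = 1.57e-06). BMPR1A (-0.90 ± 0.10) and ACVR2B (-1.04 ± 0.09) were lower, and TGFBR2 (1.61 ± 0.11) and TGFBR3 (0.99 ± 0.10) higher. Of the 5 further SMADs, SMAD3 (0.94 ± 0.13) and SMAD1 (0.39 ± 0.14) were higher and none was called lower. Among targets, HEY1 (1.18 ± 0.17) was higher, and ID4 (-0.76 ± 0.19) and MSX1 (-0.73 ± 0.16) were lower. From 24 to 60 h 12 of 43 rose and 7 fell, against 15.4% rising and 14.3% falling of all 15041 genes tested. The BMP antagonist NOG stood at 2.41 ± 0.49 per 36 h (edgeR adjusted p = 0.0022), ID4 at 1.11 ± 0.29 (adjusted p = 0.0102) and SMURF2 at -0.85 ± 0.11 (adjusted p = 5.29e-05). In the sorted cells none of 46 tested was called.

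Suspended cells had far less of 9 of the 10 transcripts than adherent cells at 60 h. Each fraction has 1 library, so there is no replicate check and no test, and ratios carry a 95% interval for counting error only. All 9 were lower by at least 2-fold, against 30.0% of 16562 genes past 2-fold, 14.3% higher and 15.7% lower, and the median log2 ratio was -2.44, against 0.13 over all genes. ID2 alone was not lower.

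The ligands BMP4 and BMP6 were low in suspended cells. BMP4 had 4.02 CPM in suspended and 25.5 CPM in adherent cells, a ratio of 0.158 (0.102 to 0.235), and BMP6 had 19.3 and 100.7 CPM, a ratio of 0.191 (0.158 to 0.230). ACVRL1 had 48.0 CPM in suspended and 323 CPM in adherent cells, a ratio of 0.149 (0.132 to 0.167). Among the SMADs of the 10 genes, SMAD6 had the highest ratio, with 243 CPM in suspended and 572 CPM in adherent cells, a ratio of 0.424 (0.401 to 0.449). SMAD7 had 5.89 CPM in suspended and 24.4 CPM in adherent cells, and SMAD9 had 2.30 and 13.7 CPM. ID1 had 57.5 CPM in suspended and 406 CPM in adherent cells, a ratio of 0.142 (0.127 to 0.157). ID3 had 43.1 CPM in suspended and 342 CPM in adherent cells, a ratio of 0.126 (0.111 to 0.142). TMEM100 showed the lowest ratio of the 10, 0.107 (0.0866 to 0.131), with 14.8 and 138 CPM. ID2 had 93.1 CPM in suspended and 59.1 CPM in adherent cells, a ratio of 1.58 (1.40 to 1.78).

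Endothelial and blood markers separated the same libraries. All 10 endothelial markers were lower in suspended cells, with ratios of 0.112 to 0.380, a range that holds 7 of the 9 lower members, and their summed level was 1940 CPM in suspended and 9723 CPM in adherent cells. All 12 blood markers were higher, at 2433 CPM in suspended and 186 CPM in adherent cells. Of 9 mesenchymal markers 6 were lower and 1 higher, with sums of 259 CPM in suspended and 679 CPM in adherent cells. Mitochondrial genes took 7.44% of counts in suspended and 5.80% in adherent cells. The part of these in the members' ratios was not tested.

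The rest of the pathway was mixed. Of 45 further pathway genes with at least 1 CPM, 21 were at least 2-fold lower in suspended cells and 5 higher, against 15.7% lower and 14.3% higher of all 16562 genes. ENG was lower, with 87.3 CPM in suspended and 354 CPM in adherent cells. SMAD1, SMAD2, SMAD4 and SMAD5 stayed within 2-fold, as did BMPR1A (40.4 CPM in suspended and 29.6 CPM in adherent cells) and BMPR2 (60.7 and 116 CPM). ID4, the remaining ID gene, was higher at 40.1 CPM in suspended and 12.1 CPM in adherent cells, a ratio of 3.32 (2.63 to 4.23). TAL1 and LYL1, blood factors of the helix-loop-helix class, were higher by 4.23 and 4.13 times, while TCF3, TCF4 and TCF12 stayed within 2-fold.

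At 96 h the suspended cells had still less of the same 9 transcripts than at 60 h. All 9 were lower by at least 2-fold, against 20.5% of 16303 genes past 2-fold, 7.15% higher and 13.4% lower, and the median log2 ratio was -1.84, against -0.19 over all genes. This comparison shares the suspended 60 h library with the one before. ACVRL1 had 1.63 CPM at 96 h and 48.0 CPM at 60 h, a ratio of 0.0339 (0.0198 to 0.0544). TMEM100 had 0 counts at 96 h and 103 counts at 60 h, a ratio whose interval reaches up to 0.0229. With 3 counts (0.271 CPM) put in place of the 0, it was 54.6-fold lower than at 60 h, leaving out counting error at 60 h. ID3 had 4.52 CPM at 96 h and 43.1 CPM at 60 h, a ratio of 0.105 (0.0761 to 0.142), and ID1 had 19.8 and 57.5 CPM, a ratio of 0.344 (0.291 to 0.407).

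Some of these 9 calls depended on the setting. With 5 CPM added in place of 0.5 CPM, the log2 ratios of BMP4 (-0.61), SMAD9 (-0.45), SMAD6 (-0.98) and SMAD7 (-0.97) were within 2-fold, as was that of SMAD6 with TMM scaling (-0.84).

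The ligands and SMADs among the members had few counts at 96 h, apart from SMAD6. SMAD7 had 6 counts at 96 h and 41 at 60 h, SMAD9 had 4 and 16, and BMP4 had 10 and 28. BMP6 had 4.52 CPM at 96 h and 19.3 CPM at 60 h, a ratio of 0.235. SMAD6, at 120.3 CPM at 96 h and 243 CPM at 60 h, was just past the 2-fold limit with a ratio of 0.495 (0.460 to 0.532), whose interval reaches above it. ID2 had 105.8 CPM at 96 h and 93.1 CPM at 60 h, a ratio of 1.14 (1.03 to 1.25). SMAD6 and ID2 were the members above 100 CPM in suspended cells at 96 h. Endothelial markers summed to 886 CPM at 96 h and 1940 CPM at 60 h, with 7 of 10 lower and 1 higher (EMCN, 13.3 and 5.46 CPM). Of these sums PECAM1, which blood cells also make, gave 559 and 439 CPM. CDH5 had 4.25 CPM at 96 h and 194 CPM at 60 h. Blood markers summed to 4969 CPM at 96 h and 2433 CPM at 60 h, with 4 of 12 higher, and mesenchymal markers to 66.5 and 259 CPM, with 7 of 9 lower. Mitochondrial genes took 9.66% of counts at 96 h and 7.44% at 60 h, and the part of these in the members' ratios was not tested.

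**Figure D4:**
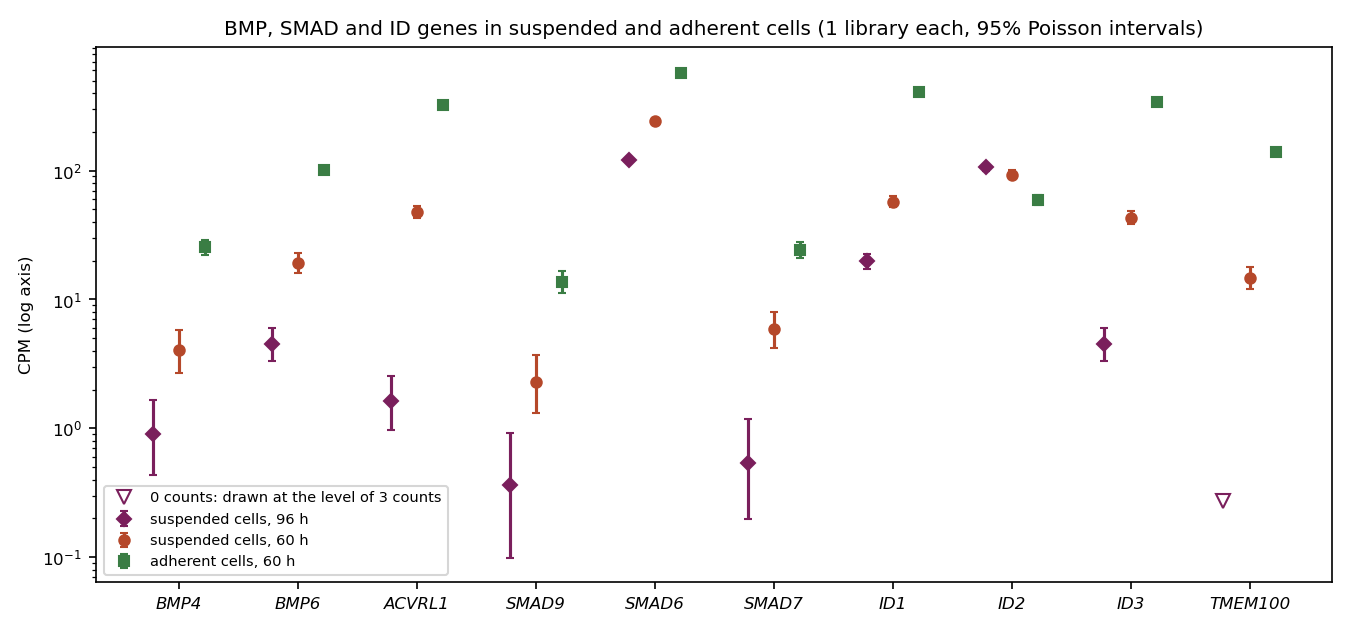
CPM on a log axis of the 10 genes in suspended cells at 96 h (diamonds), suspended cells at 60 h (circles) and adherent cells at 60 h (squares), 1 library each, with 95% Poisson intervals. The open triangle marks TMEM100 with 0 counts, drawn at 0.271 CPM, the level of 3 counts. The points of ID2 stay between 59.1 and 105.8 CPM, while those of ACVRL1 span 1.63 to 323 CPM.

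Across the 10 course libraries the genes fell into different patterns, given as Pearson r of log2 CPM (TMM scaled, 0.5 CPM added). They are for description only, since these libraries share times, with 1 library per condition and time. ID2 and SMAD7 had the closest course of any pair of members (r = 0.975), followed by ACVRL1 and BMP6 (0.922). ID1 and ID3 had r = 0.80, whereas ID1 and ID2 had 0.06. BMP6 and ID2 ran opposite (-0.913), as did ACVRL1 and SMAD7 (-0.911). Among 11248 genes with a mean of at least 5 CPM, those most like SMAD7 were ID2 and GATA6 (0.969). TMEM100 was most like MEIS2 (0.986), ACVRL1 most like OSTF1 (0.990) and BMP6 most like SLFN12 (0.982). ID1 was most like APP (0.958), ID3 most like NOMO2 (0.980) and ID2 most like GANAB (0.982). SMAD6 was most like ADAMTS6 (0.965), SMAD9 most like KCNMB4 (0.974) and BMP4 most like SRP68 (0.945).

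By the gene models of GENCODE release 29 (GRCh38), the 10 genes lie on 10 chromosomes, so none is a neighbour of another. TMEM100 (ENSG00000166292) spans chr17:55719627-55732121, ACVRL1 (ENSG00000139567) chr12:51906908-51923361 and BMP6 (ENSG00000153162) chr6:7726797-7881422. SMAD9 (ENSG00000120693) spans chr13:36844831-36920765 and ID2 (ENSG00000115738) chr2:8678845-8684453. ID1 (ENSG00000125968) spans chr20:31605283-31606515 and ID3 (ENSG00000117318) chr1:23557918-23559794. SMAD6 (ENSG00000137834) spans chr15:66702228-66782848, SMAD7 (ENSG00000101665) chr18:48919853-48952052 and BMP4 (ENSG00000125378) chr14:53949736-53958761.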

How the data were processed

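The authors deposited 1 table per library. The 13 tables of the course and of the suspended and adherent cells hold raw counts of reads per gene, as deposited. The 4 tables of the sorted cells hold values read as TPM, since they sum to 995020 to 996531, and how the authors made these TPM values is not given in the sources used here. The submitters' processing notes list the builds GRCh38 and hg38, and the tools DESeq 1.18.1, HTSeq 0.6.0, HISAT2 2.0.4 and SAMtools 1.3.1. Per the labels' protocols, RNA was taken with Trizol and made into TruSeq libraries. No whole reads can be recovered from TPM, so sorted libraries have no known depth.

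Counts were tested with edgeR 4.0.16 in R 4.3.3 (TMM, filterByExpr, quasi-likelihood), and TPM with limma 3.58.1 on log2(TPM + 1) keeping genes that reached 1 TPM in 2 or more libraries. A log2 difference of TPM understates low genes. All tests were two-sided, fitted on all genes, with Benjamini-Hochberg adjustment and a threshold of 0.05. The SE of an edgeR value was taken from its F statistic. CPM in the text are of the library total and fits are TMM scaled. Single libraries were compared by ratio of CPM with an interval from the conditional binomial, and log2 ratios had 0.5 CPM added, for genes with at least 1 CPM. Intervals and limits from 3 counts are at 95%, and cover counting error only, because reads lacking molecular identifiers can be copies of 1 molecule. Symbols came from the gene table, which named 57532 count identifiers and 25246 TPM identifiers.

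The 10 genes and the gene lists were chosen with earlier results of these data known. All 10 were named whatever they did, other pathway genes only if among the 4 smallest p of their list when called (for single libraries the largest ratios with at least 20 CPM), and core pathway genes with their level. SMAD2, TCF3, TCF4 and TCF12 beside these, and GDF2, were named after their values were seen. The scripts were tested on simulated counts and TPM. Alternatives were DESeq2 1.42.0, its size factors, library totals alone, no filter, other pseudocounts, each library left out, no term for time, ranks of time, the replicate number as a block, groups taken from the descriptions, and 5 CPM added. 1 gene of the pathway lists is counted but not reported here by name.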

Additional observations from a re-analysis of the deposited data

Results flagged for a closer look

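HEY1, a target shared by Notch and BMP signalling, was the 1 gene of 45 tested in the pathway lists that was called for a change of the vitamin C difference with hours. Of all 16276 genes 0.737% were called. It had 115.5, 174, 195, 189 and 234 CPM with vitamin C at 0, 24, 36, 48 and 60 h, against 62.7, 151, 169, 222 and 253 CPM without. The library with vitamin C was the higher one up to 36 h and the lower one at 48 and 60 h. The log2 difference was largest at 0 h, at 0.87, and lay between -0.23 and 0.21 at later times. The change of the log2 difference, with minus without, was -1.05 ± 0.20 per 60 h (edgeR, Benjamini-Hochberg adjusted p = 0.0252).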

How the results depend on the processing

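Depth limits SMAD9, SMAD7 and BMP4 in suspended cells, and the sorted libraries have no known depth. For vitamin C over the course 955 genes were called, but 1591 with no filter, 28 with no term for time, 620 without the 60 h pair (chosen after seeing the data) and 505 to 1209 with 1 library left out, of which any 24, 36 or 48 h library gave 505 to 611. SMAD9 (-0.82, adjusted p = 0.877) and ID3 (-0.38, adjusted p = 0.716) were not called with no term for time, nor was ID3 without the 60 h pair (-0.27, adjusted p = 0.077). Leaving out 1 library gave 3844 to 5965 calls for later times against 0 h (3844 without the 0 h library lacking vitamin C), 2992 to 4483 for hours and 53 to 163 for the interaction (53 and 54 without a 0 h library), which had 439 with no filter. With 5 CPM added, 2377 genes passed 2-fold between suspended and adherent cells and 1224 between 96 and 60 h.

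In the sorted cells the descriptions' groups gave 156 calls and reversed BMP4 (-0.80), ACVRL1 (-0.17), SMAD6 (0.99), SMAD7 (0.41), ID2 (1.60, adjusted p = 0.0297) and TMEM100 (-4.16, adjusted p = 0.0153), and 1 library left out gave 0 to 1. The replicate block gave 0 calls (the deviations of same-numbered libraries correlated at 0.565 over genes, and no label says that the number pairs cultures). With 1 library left out, signs turned for these ranges: in the sorted cells BMP4 -0.47 to 0.55, SMAD9 -0.81 to 0.22, SMAD6 -0.75 to 0.73, SMAD7 -0.50 to 0.0467, ID1 -0.27 to 0.56, ID2 -1.02 to 0.64, ID3 -0.32 to 0.79 and TMEM100 -1.75 to 2.75; against 0 h BMP4 -0.35 to 0.36 and ID3 -0.12 to 0.16; for hours BMP6 -0.36 to 0.12; for the interaction BMP4 -0.74 to 1.12, SMAD9 -0.78 to 0.30, SMAD6 -1.37 to 0.0925 and SMAD7 -0.61 to 1.20. Against 0 h, ID3 was -0.0125 with library totals alone, and 24 h alone, added after seeing the data, gave 0.21 for BMP4, -0.18 for ID1 and -0.28 for ID3. The cause of these changes was not tested.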

Other observations

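GDF2, which encodes BMP9, a high-affinity ligand of ACVRL1, had 1 count in the adherent library at 60 h and 0 counts in the other 12 count libraries, where 3 counts would be 0.271 to 0.483 CPM. GDF2 was singled out after its values were seen. BMP10, the other such ligand, had 9.30 to 31.7 CPM with vitamin C and 18.4 to 39.8 CPM without over the course, with 4.17 CPM in suspended and 17.4 CPM in adherent cells at 60 h. Over the course SMAD4 stayed within 45.3 to 50.7 CPM with vitamin C and 40.1 to 48.5 CPM without, and SMAD5 within 85.9 to 115.5 CPM with and 88.2 to 112 CPM without. BMPR2 stood at 110.3 to 146 CPM with vitamin C and 128 to 154 CPM without.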
